A study of Homo sapiens with 4 samples.

Results

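The 39 genes described here are interferon-stimulated and antigen presentation genes, measured in HCT116 cells that had received a small interfering RNA (siRNA) 48 h earlier. They were taken as a list of gene symbols, with no cut on measured values, but with earlier results of these data known. They are 39 of the 58735 gene identifiers in the files. HCT116 is an established human colorectal carcinoma cell line. Cells were transfected with a control siRNA in 2 libraries, called control siRNA 1 and 2, or with siRNA against KIF26B, a kinesin family gene, in 2 libraries, called KIF26B siRNA 1 and 2. All 4 libraries carried a transfected siRNA, and no untransfected cells were analysed here, so a response shared by all transfected cells cannot be seen in these comparisons. The column headings of the KIF26B siRNA files, K_KD1_2 and K_KD2, number the knockdowns, but which siRNA sequence each library received is not given in the sources used here, nor whether the replicates were separate cultures, so the P values measure the spread between these libraries, which may be technical.

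Interferons bind receptors on the cell surface that signal through the kinases JAK1 and TYK2 to transcription factors of the STAT family, STAT2 among them. Together with IRF9 these bind a promoter element called the interferon-stimulated response element (ISRE) and raise a large group of antiviral genes, while interferon gamma acts mainly at a second element, the gamma-activated site (GAS). Double-stranded RNA in the cytoplasm, including some synthetic siRNAs, can start the same programme through the sensors RIG-I and MDA5 (gene IFIH1) and is also bound by the kinase PKR (EIF2AK2) and the oligoadenylate synthetases, so the comparison bears on whether such genes differed between cells given the KIF26B siRNAs and cells given the control siRNA.

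The element shared by many of these genes could be read in their promoters. RefSeq promoter sequences on GRCh38.p14, running from 250 bases before to 50 bases after each start, matched 32 of the 39 symbols with 42 starts in all. The ISRE core was searched as GAAANNGAAA or, on the other strand, TTTCNNTTTC, and at least 1 was found at 26 of the 42 member starts (61.9%), against 3.57% of 35116 starts of all genes. The GAS letters TTCNNNGAA, which read the same on both strands, were found at 10 of the 42 starts (23.8%), against 7.66% of all starts, and in BST2, IFI27 and MX1 a GAS match overlapped an ISRE core. By gene, 22 of the 32 matched members held an ISRE core and 9 a GAS match. Stretches before the start are shown for 6 members whose values recur below, 5 that were lower in both KIF26B siRNA libraries and ISG15, which was not. Each runs 5′ to 3′ on the gene's strand from 10 bases before its first ISRE core to 10 bases after its last, or to the base before the start, with the cores in capitals.
IFI6: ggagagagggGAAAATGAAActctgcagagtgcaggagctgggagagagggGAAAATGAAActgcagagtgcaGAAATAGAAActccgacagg
OAS3: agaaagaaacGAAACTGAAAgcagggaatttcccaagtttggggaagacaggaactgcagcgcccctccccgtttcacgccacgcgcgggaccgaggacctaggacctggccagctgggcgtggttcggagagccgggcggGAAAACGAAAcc
SAMD9: tctgagaaatGAAACTGAAAccaaacctat
DDX60: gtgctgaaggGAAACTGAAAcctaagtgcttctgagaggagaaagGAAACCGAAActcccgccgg
IFIT1: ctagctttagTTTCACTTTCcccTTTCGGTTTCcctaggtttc
ISG15: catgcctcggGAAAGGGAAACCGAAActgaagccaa

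The IFI6 stretch lies at chr1:27672266-27672358 on the minus strand and holds 3 cores. The OAS3 stretch, chr12:112938321-112938473 on the plus strand, holds 2 cores, 1 of them close to the start. SAMD9 at chr7:93118096-93118125 on the minus strand had 1 core, DDX60 at chr4:168318786-168318850 on the minus strand had 2, IFIT1 at chr10:89392497-89392539 on the plus strand had 2, and ISG15 at chr1:1013374-1013409 on the plus strand had 2 that overlap. As a description, the median log2 fold change was -0.19 over the 17 tested members with a core and -0.23 over the 7 tested members matched without one. Both KIF26B siRNA libraries lay below both controls for 7 of those 17 and for 4 of those 7, namely HERC6, IRF1, SP100 and STAT2. This placement held for 27.8% of all genes tested.

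Levels are given as FPKM, fragments corrected for exon length and sequencing depth. The depth divisors, inferred from the values of single-exon genes, ran from 18068934 to 24673739 fragments per library. KIF26B itself was at 0.110 and 0.205 FPKM in control siRNA 1 and 2 and at 0.140 and 0.0307 FPKM in KIF26B siRNA 1 and 2, with 31, 73, 43 and 8 reads recovered behind these values. The library labelled KIF26B siRNA 1 thus lay between the controls for the targeted gene, and every direction below is between libraries as labelled. In RNA of whole cultures, fewer cells expressing a gene and less RNA per cell cannot be told apart. Of the 8 intestinal epithelium markers, KRT8 was at 350 to 485 FPKM and KRT18 at 168 to 245. EPCAM was at 77.0 to 98.6 FPKM and CDH1 at 17.7 to 24.1. CDX2 was at 2.32 to 3.44 FPKM, KRT20 at 0.0552 to 0.507, VIL1 at 0.0368 or less and CDX1 at 0 in all libraries. KRT8, KRT18 and CDH1 lay below both controls in both KIF26B siRNA libraries, as did 27.8% of all genes tested. For EPCAM and CDX2 the KIF26B siRNA libraries lay on opposite sides of the controls. Of 5 matched fibroblast and endothelial markers, COL1A1 was at 4.74 to 8.69 FPKM and the other genes at 0.201 or less. The 10 immune cell markers summed to 0.612 and 0.839 FPKM in the controls and 0.455 and 0.751 in the KIF26B siRNA libraries, with CD3E and CLEC4C at 0 throughout. Mitochondrial genes held 6.87% and 6.89% of recovered reads in the controls and 9.66% and 7.75% in KIF26B siRNA 1 and 2, and their part in the results was not tested.

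Of the 39 genes, 27 had a mean of at least 1 FPKM and were tested with limma on log2(FPKM + 1) among 14523 genes. No member was higher at an unadjusted P below 0.05 and 5 were lower: the oligoadenylate synthetase OAS3, the double-stranded RNA kinase EIF2AK2, and the effectors IFI6, SAMD9 and SP100. The 5 make up 18.5% of the members tested, against 8.68% of all genes tested called lower and 7.74% called higher by the same rule. None of the 27 passed the thresholds of the study's methods (P below 0.05 with a log2 fold change beyond 1 in either direction), which 0.813% of all genes passed upward and 0.606% downward. No member and no gene at all had an adjusted P below 0.05 (0 of 14523 genes, or 0%, in limma, against 2385 at an unadjusted P below 0.05), and limma-voom on recovered reads also gave 0. A fit with a library left out takes its spread from the other group's pair, so its adjusted P values are not given. The number of genes called changed with the library left out, among all genes tested as among the members. The count of 5 was therefore not stable. With 1 library left out, log2 fold changes of the 5 ran from -0.78 to -0.50 for IFI6 and -0.88 to -0.49 for OAS3. They ran from -1.01 to -0.49 for SAMD9, -0.61 to -0.32 for EIF2AK2 and -0.38 to -0.27 for SP100.

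The point plot shows the fold changes of the 27 members tested, which did not share a single direction. Of the 27 members, 21 had a log2 fold change below 0 and 6 above it, with a median of -0.19, while 51.6% of all genes tested were below 0 with a median of -0.01. Both KIF26B siRNA libraries lay below both controls for 12 of the 27 (44.4%), where 27.8% of all genes did so, and both lay above both controls for UBE2L6 only, where 24.9% of all genes did so.

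Among the RNA sensors and antiviral enzymes, 6 of 8 members were tested, 5 of them with a fold change below 0 (51.6% of all genes tested) and 2 lower at an unadjusted P below 0.05 (8.68% of all genes tested). OAS3, which makes the oligoadenylates that activate RNase L, was at 10.9 and 11.3 FPKM in control siRNA 1 and 2 and at 7.65 and 5.60 FPKM in KIF26B siRNA 1 and 2. Both KIF26B siRNA values were below both controls, and KIF26B siRNA 2 was the lower. The log2 fold change was -0.68 ± 0.18 (SE, n = 2 per group), with an adjusted P of 0.254 in limma. EIF2AK2, the kinase that halts translation on binding double-stranded RNA, was at 11.4 and 11.7 FPKM in the controls and at 9.05 and 7.22 in KIF26B siRNA 1 and 2. The groups again did not overlap, and the log2 fold change was -0.47 ± 0.15 (SE, limma adjusted P = 0.284).

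The helicases were not below an unadjusted P of 0.05. DDX60, a helicase of the antiviral response, was at 3.63 and 4.12 FPKM in the controls and at 3.003 and 2.02 in KIF26B siRNA 1 and 2, which did not overlap, with a log2 fold change of -0.49 ± 0.19 (SE, limma adjusted P = 0.316). IFIH1, which encodes the sensor MDA5, was at 1.73 and 2.81 FPKM in the controls and at 1.86 and 0.932 in the KIF26B siRNA libraries. Control siRNA 1 and 2 stood further apart for IFIH1 than KIF26B siRNA 1 and control siRNA 1 did, and the log2 fold change was -0.45 ± 0.28 (SE, limma adjusted P = 0.478). The exonuclease ISG20 was at 2.44 and 2.68 FPKM in the controls and at 1.28 and 2.29 in KIF26B siRNA 1 and 2, here with KIF26B siRNA 1 the lower. OASL, a relative of the oligoadenylate synthetases that lacks their enzyme activity, went the other way between the KIF26B siRNA libraries, at 3.03 and 2.87 FPKM in the controls and 2.30 and 5.33 in KIF26B siRNA 1 and 2. ISG20 had a limma adjusted P of 0.449 and OASL one of 0.786.

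The remaining enzymes of the family were near the limit of detection. OAS1 was at 0.165 and 0.205 FPKM in the controls and at 0.0757 and 0.0447 in the KIF26B siRNA libraries, resting on 16, 25, 8 and 4 reads. OAS2 was at 0.0895 and 0.104 FPKM in the controls and at 0.0149 and 0.0353 in KIF26B siRNA 1 and 2, resting on 11, 16, 2 and 4 reads. For both genes the KIF26B siRNA libraries lay under the controls, a placement that 27.8% of all genes tested also had. OAS1 and OAS2 were not tested because their means were below 1 FPKM, so that share is over genes with higher levels and is not a like comparison.

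**Figure D1:**
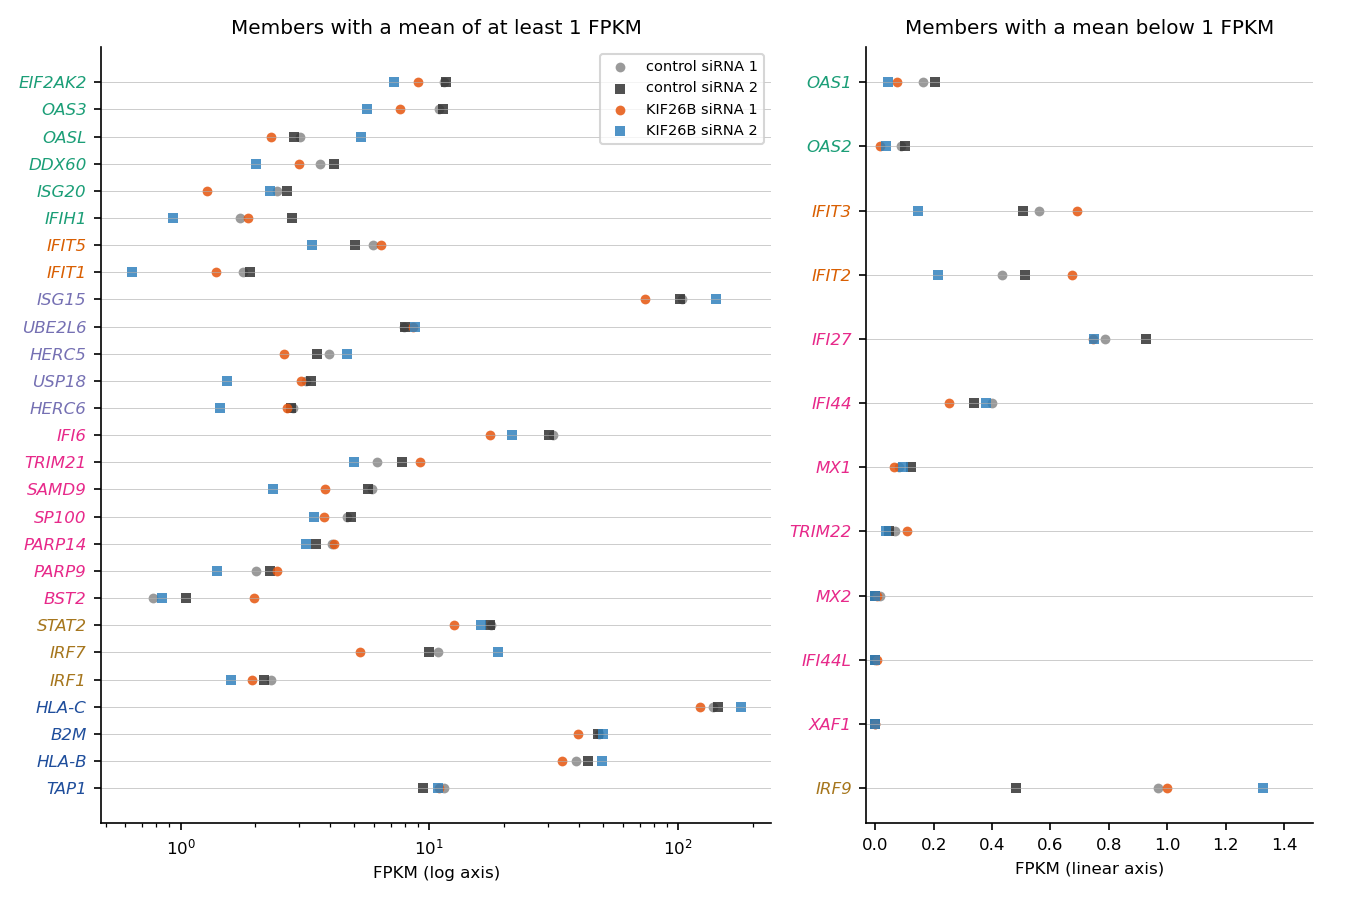
FPKM of the 39 members in each library, on a log axis for the 27 with a mean of at least 1 FPKM (left) and on a linear axis for the 12 below it (right), with names coloured by role. Circles and squares are replicates 1 and 2, grey and black for control siRNA, orange and blue for KIF26B siRNA. The controls lie close together for most members while the KIF26B siRNA points for ISG15 (73.4 and 142 FPKM) and IRF7 (5.27 and 18.9 FPKM) fall on opposite sides of them, and points of MX2, IFI44L and XAF1 cover each other at or near 0.

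The IFIT proteins bind viral RNA, IFIT1 doing so at the cap of RNAs that lack host methylation. IFIT1 was at 1.78 and 1.91 FPKM in the controls and at 1.39 and 0.636 in KIF26B siRNA 1 and 2, below both controls in each. Its log2 fold change was -0.52 ± 0.22 (SE, limma adjusted P = 0.347). IFIT5 was at 5.96 and 5.03 FPKM in the controls, 6.41 in KIF26B siRNA 1 and 3.36 in KIF26B siRNA 2, on either side of the controls (limma adjusted P = 0.778). IFIT2 and IFIT3, both below 1 FPKM, also had KIF26B siRNA 1 above and KIF26B siRNA 2 below both controls. IFIT2 was at 0.435 and 0.514 FPKM in the controls, 0.673 in KIF26B siRNA 1 and 0.216 in KIF26B siRNA 2, from 35, 52, 59 and 16 reads, and IFIT3 was at 0.560, 0.507, 0.691 and 0.147 FPKM, from 29, 33, 39 and 7 reads. KIF26B siRNA 2 thus lay below both controls for all 4 IFIT genes, as it did for 6510 of the 14523 genes tested. IFIT2 and IFIT3 are not among those tested.

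ISG15 is a ubiquitin-like protein that UBE2L6 and HERC5 attach to targets and USP18 removes. ISG15 was at 104 and 102 FPKM in the controls, 73.4 in KIF26B siRNA 1 and 142 in KIF26B siRNA 2. The controls differed little and the KIF26B siRNA libraries lay far on either side of them, so that the mean difference was near 0 (-0.01 ± 0.35 on the log2 scale, SE, limma adjusted P = 0.991). HERC5, the ligase, had the same pattern, with 3.94 and 3.55 FPKM in the controls, 2.61 in KIF26B siRNA 1 and 4.67 in KIF26B siRNA 2 (limma adjusted P = 0.910). The conjugating enzyme UBE2L6 was at 7.91 and 7.97 FPKM in the controls and at 8.56 and 8.79 in the KIF26B siRNA libraries, above both controls in each but by a log2 fold change of 0.11 ± 0.11 (SE, limma adjusted P = 0.630).

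USP18, which also dampens interferon receptor signalling, was at 3.21 and 3.35 FPKM in the controls, 3.06 in KIF26B siRNA 1 and 1.53 in KIF26B siRNA 2. HERC6, a relative of HERC5, was at 2.84 and 2.79 FPKM in the controls, 2.68 in KIF26B siRNA 1 and 1.44 in KIF26B siRNA 2. For both, KIF26B siRNA 1 was just under the controls and KIF26B siRNA 2 well under them. The log2 fold changes were -0.42 ± 0.26 for USP18 and -0.35 ± 0.24 for HERC6 (SE), with limma adjusted P values of 0.482 and 0.508.

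The other induced effectors held 3 of the 5 members called lower, with 7 of the 14 listed being tested. These 3 make up 42.9% of those tested, against 8.68% of all genes tested called lower. IFI6, a small hydrophobic membrane protein, was at 31.4 and 30.3 FPKM in the controls and at 17.6 and 21.5 in KIF26B siRNA 1 and 2. It had the smallest P of all members, with a log2 fold change of -0.64 ± 0.15 (SE, n = 2 per group, limma adjusted P = 0.248), and here KIF26B siRNA 1 was the lower. SAMD9, a cytoplasmic protein that restricts poxviruses, was at 5.86 and 5.66 FPKM in the controls and at 3.80 and 2.36 in KIF26B siRNA 1 and 2. Its log2 fold change of -0.75 ± 0.21 was the most negative of the members (SE, limma adjusted P = 0.269). SP100, a component of PML nuclear bodies, was at 4.68 and 4.83 FPKM in the controls and at 3.77 and 3.43 in the KIF26B siRNA libraries, with a log2 fold change of -0.32 ± 0.11 (SE, limma adjusted P = 0.301). Both KIF26B siRNA libraries lay below both controls for each of these 3 genes, as they did for 27.8% of all genes tested.

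TRIM21, the cytoplasmic antibody receptor, was at 6.18 and 7.73 FPKM in the controls, 9.20 in KIF26B siRNA 1 and 4.96 in KIF26B siRNA 2, on either side of the controls. PARP9 and PARP14, both of the ADP-ribosyltransferase family, also had KIF26B siRNA 1 above and KIF26B siRNA 2 below the controls, PARP9 with 2.02 and 2.29 FPKM in the controls and 2.43 and 1.41 in KIF26B siRNA 1 and 2, PARP14 with 4.07, 3.50, 4.13 and 3.21 FPKM in the same order. BST2, the tether that holds budding virus at the membrane, was at 0.774 and 1.05 FPKM in the controls, 1.97 in KIF26B siRNA 1 and 0.841 in KIF26B siRNA 2, from 17, 29, 47 and 17 reads. BST2 was thus high in KIF26B siRNA 1 alone. None of these 4 was below 0.05 in limma (TRIM21 adjusted P = 0.976, PARP9 adjusted P = 0.782, PARP14 adjusted P = 0.913, BST2 adjusted P = 0.630).

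Several of the best known interferon-induced genes were scarcely present in any library. IFI27 was at 0.745 to 0.928 FPKM over the 4 libraries, with 56 to 95 reads, and IFI44 at 0.253 to 0.400 FPKM with 11 to 17 reads. MX1, a GTPase that blocks incoming viruses, was at 0.0828 and 0.122 FPKM in the controls and at 0.0652 and 0.0964 in the KIF26B siRNA libraries, with 12 to 26 reads. TRIM22 was at 0.0677 and 0.0471 FPKM in the controls, 0.109 in KIF26B siRNA 1 and 0.0368 in KIF26B siRNA 2, with 4 to 14 reads. MX2 had 2, 0, 1 and 0 reads and IFI44L 0, 0, 1 and 0 reads in the order control siRNA 1 and 2, KIF26B siRNA 1 and 2. XAF1 was at 0 in all 4 libraries. With 3 reads taken as an approximate upper limit for a count of 0, its limit was 0.0184 to 0.0251 FPKM. That limit uses its exon length of 6615 bases and covers counting error only. The 12 members with means below 1 FPKM together held 267 and 316 reads in the controls and 294 and 211 in KIF26B siRNA 1 and 2.

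The signal transducers split as well. STAT2, a partner of IRF9 at the ISRE, was at 17.7 and 17.5 FPKM in the controls and at 12.6 and 16.1 in KIF26B siRNA 1 and 2, below both controls in each, with a log2 fold change of -0.29 ± 0.16 (SE, limma adjusted P = 0.427). IRF1, a transcription factor induced early by interferon gamma, was at 2.31 and 2.17 FPKM in the controls and at 1.93 and 1.60 in the KIF26B siRNA libraries (limma adjusted P = 0.426). IRF7, the factor that amplifies interferon alpha production, was at 10.8 and 10.0 FPKM in the controls, 5.27 in KIF26B siRNA 1 and 18.9 in KIF26B siRNA 2, the widest gap between the KIF26B siRNA libraries among the members tested, 1.67 on the log2 scale. Its mean difference was -0.03 ± 0.60 (SE, limma adjusted P = 0.983). IRF9, with a mean just under 1 FPKM and so not tested, was at 0.967 and 0.481 FPKM in the controls and at 0.999 and 1.33 in KIF26B siRNA 1 and 2, from 72, 45, 81 and 91 reads. Both KIF26B siRNA libraries thus lay above both controls for IRF9, as they did for 24.9% of all genes tested, a set without IRF9.

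The antigen presentation genes included the most abundant member, HLA-C, and none of the 4 was below an unadjusted P of 0.05. HLA-C, a classical class I heavy chain, was at 139 and 145 FPKM in the controls, 123 in KIF26B siRNA 1 and 179 in KIF26B siRNA 2, and HLA-B was at 38.7, 43.5, 34.1 and 49.6 FPKM in the same order. B2M, the light chain common to class I molecules, was at 48.3 and 47.8 FPKM in the controls, 39.7 in KIF26B siRNA 1 and 50.1 in KIF26B siRNA 2. In each of these 3 genes KIF26B siRNA 1 was below both controls and KIF26B siRNA 2 above both. TAP1, a subunit of the peptide transporter, was at 11.4 and 9.45 FPKM in the controls and at 10.9 in both KIF26B siRNA libraries, between the controls. The log2 fold changes of the 4 genes ran from -0.11 to 0.06, with limma adjusted P values of 0.902 for HLA-C, 0.997 for HLA-B, 0.765 for B2M and 0.840 for TAP1. HLA-B and HLA-C are near-identical over long stretches, so their reads could be split differently by the counting and their separate values are uncertain.

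The KIF26B siRNA libraries differed from each other more than the controls did for 26 of the 27 members tested (96.3%), against 79.4% of all genes tested. The median absolute difference on the log2(FPKM + 1) scale was 0.53 between KIF26B siRNA 1 and 2 and 0.07 between the controls over the members, and 0.28 and 0.07 over all genes tested. Below both controls in KIF26B siRNA 1 and above both in KIF26B siRNA 2 were 7 of the 27 members (25.9%), namely ISG15, IRF7, OASL, HERC5, HLA-B, HLA-C and B2M, where 14.0% of all genes were so placed. The opposite placement held for IFIT5, TRIM21, PARP9 and PARP14, 4 of 27 or 14.8%, against 12.3% of all genes. Against the control mean, the median of the members was -0.26 in KIF26B siRNA 1 and -0.32 in KIF26B siRNA 2, so both medians were below 0 while the members behind them differed.

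The gap between KIF26B siRNA 1 and 2 moved with base composition among the members. Across the 27 members, the log2 difference of KIF26B siRNA 2 minus 1 had a Pearson correlation of 0.59 and a Spearman correlation of 0.45 with the GC content of the exons, as a description over genes that share libraries and are not independent replicates. Across 14343 tested genes with a known GC content the same correlations were 0.04 and 0.04. Taken against the control mean, the Pearson correlation with GC content across the members was 0.64 for KIF26B siRNA 2 and -0.17 for KIF26B siRNA 1. Across all genes with a known GC content these were 0.09 and 0.05. Of the 13 members above the median GC content of all genes tested (49.6%), 9 were higher in KIF26B siRNA 2 than in KIF26B siRNA 1, and of the 14 at or below it 2 were. The fold change between the groups moved with GC content as well, with a Pearson correlation of 0.46 and a Spearman correlation of 0.52 across the members, against 0.08 and 0.11 across all genes with a known GC content. Its median was -0.01 over the 13 members above the split and -0.34 over the 14 at or below it, against 0.03 and -0.05 over all genes. Of the members called lower, IFI6 and OAS3 lay above the split and EIF2AK2, SAMD9 and SP100 at or below it, where 499 of 7171 and 748 of 7172 genes were called lower. The fold change also moved with exon length on a log scale, with Pearson and Spearman correlations of -0.42 and -0.46 across the members. Across all genes with a known GC content these were -0.13 and -0.12. The parts of base composition and exon length in the gap and in the fold changes were not tested.

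The rest of the interferon pathway was read from a list of 69 further genes, of which 47 were tested. Of these, 8 (17.0%) were lower at an unadjusted P below 0.05 and 1 was higher, against 8.68% and 7.74% of all genes tested, and both KIF26B siRNA libraries lay below both controls for 18 of the 47 (38.3%), against 27.8% of all genes tested. None of the 8 interferon genes on the list had a mean of 1 FPKM, the highest being IFNE, which was at 1.07 and 0.934 FPKM in the controls, 1.78 in KIF26B siRNA 1 and 0.113 in KIF26B siRNA 2 and was named after its values were seen. IFNB1, the interferon made first by most infected cells, was at 0 in 3 libraries and at 0.0644 FPKM in KIF26B siRNA 2, which is 1 read. Of the receptor chains, IFNAR1 was at 8.25 and 8.53 FPKM in the controls, 8.63 in KIF26B siRNA 1 and 3.89 in KIF26B siRNA 2 (limma adjusted P = 0.573), IFNAR2 was at 0.294 to 0.439 FPKM, and the interferon gamma receptor chain IFNGR2 was lower, at 11.9 and 11.0 FPKM in the controls and 8.73 and 8.53 in the KIF26B siRNA libraries (limma adjusted P = 0.277).

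The receptor kinases JAK1, TYK2 and JAK2 were among the 8 lower genes. JAK1 was at 24.6 and 25.7 FPKM in the controls and at 17.5 and 18.5 in the KIF26B siRNA libraries, with a log2 fold change of -0.46 ± 0.11 (SE, limma adjusted P = 0.248). TYK2 was at 21.9 and 21.7 FPKM against 13.8 and 17.3 (limma adjusted P = 0.288) and JAK2 at 3.37 and 3.23 against 2.29 and 2.57 (limma adjusted P = 0.301). For each of these 3 kinases both KIF26B siRNA libraries lay below both controls, as they did for 27.8% of all genes tested. The inhibitor PIAS1 was lower, at 4.83 and 4.42 FPKM against 3.44 and 3.41 (limma adjusted P = 0.288).

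Among the sensing genes, SAMHD1, a triphosphohydrolase that depletes deoxynucleotides, was lower with 3.71 and 4.03 FPKM in the controls and 2.24 and 1.76 in the KIF26B siRNA libraries (log2 fold change -0.70 ± 0.14, SE, limma adjusted P = 0.242). The adaptor TRAF3 was the 1 gene that was higher, with 7.38 and 7.77 FPKM against 11.6 and 9.50 (limma adjusted P = 0.291). RIGI, the sensor of short double-stranded RNA ends, was at 4.61 and 5.22 FPKM in the controls, 6.20 in KIF26B siRNA 1 and 3.74 in KIF26B siRNA 2, on either side of the controls (limma adjusted P = 0.978).

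In the presentation list, PSMB9, an immunoproteasome subunit, was at 4.36 and 3.65 FPKM in the controls and at 1.57 and 2.02 in the KIF26B siRNA libraries, with a log2 fold change of -0.84 ± 0.15 (SE, limma adjusted P = 0.242). HLA-DRA, a class II chain, was at 4.26 and 3.01 FPKM against 1.68 and 1.34, with a log2 fold change of -0.87 ± 0.19 (SE, limma adjusted P = 0.242). For PSMB9 and HLA-DRA both KIF26B siRNA libraries lay below both controls, as they did for 27.8% of all genes tested. Of the 15 tested genes of the presentation list, 3 (20%) were so placed. For 5 of the 15 (33.3%) both libraries lay above both controls, against 24.9% of all genes tested.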

How the data were processed

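RNA of HCT116 cells, in 2 control siRNA and 2 KIF26B siRNA libraries, was sequenced as poly(A)-selected paired-end reads. The authors deposited 1 FPKM value per gene and library, a unit read from the values. The submitters' processing notes name HISAT2 2.0.5, featureCounts 1.5.0-p3 and hg38, whereas the methods of the study name hg19. No coordinate of the files was used. Symbols came from GENCODE annotation of GRCh37 (56513 of 58735 identifiers), and promoters with their coordinates from RefSeq on GRCh38.p14. Use of strand in counting is not given in the sources used here, so reads of a gene and an antisense neighbour cannot be separated.

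The 14523 genes averaging 1 FPKM or more were compared with limma 3.58.1 in R 4.3.3 on log2(FPKM + 1), a scale that understates the change of low genes, with no covariates, a two-sided moderated test and adjustment by Benjamini-Hochberg across the 14523 genes. The residual and prior degrees of freedom were 2 and 2.00. Whole reads were recovered from the steps of the FPKM values for 99.3% of the 34638 genes above 0 and are known for a gene only up to a possible common factor. Their sum exceeded the inferred divisor in KIF26B siRNA 1 (21407384 against 21363618) and KIF26B siRNA 2 (19052779 against 18068934), so recovered reads are approximate. This recovery rule was set after seeing the data, and reads served only as depth, for the mitochondrial shares and in the limma-voom alternative. At single-exon genes 89.0% to 89.7% of values were whole multiples of 1 read within 0.01.

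The members and gene lists were chosen with earlier results of these data known. All members are named. Of the pathway list, genes with P below 0.05 and RIGI, IFNB1, IFNAR1 and IFNAR2 are named. Some genes that the naming rule also covers are not reported here. The alternatives were the replicate number as a block, a pseudocount of 0.1, no filter, at least 1 FPKM in every library, a variance trend, median-of-ratios scaling, limma-voom and leaving out each library. Python 3.11.15 was used for the tables and figures.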

Additional observations from a re-analysis of the deposited data

How the results depend on the processing

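The 118 genes higher and 88 lower past the thresholds became 217 and 203 with a pseudocount of 0.1, 69 and 52 with at least 1 FPKM in every library, and 193 and 203 with limma-voom on recovered reads. Leaving out 1 library gave 156 to 334 higher and 123 to 223 lower. The replicate numbers did not pair the libraries (correlation of deviations -0.0031), and a replicate block gave 135 genes higher and 98 lower. With the block, 3 members were lower in place of 5, EIF2AK2 and SP100 being above 0.05. Over all genes tested, 5.93% were then lower at an unadjusted P below 0.05, in place of 8.68%. Leaving out 1 library gave 0 to 4 members higher and 0 to 13 lower. In these fits the lone library is assumed to vary like the other group, so that the spread rests on the control pair when a KIF26B siRNA library is left out and on the KIF26B siRNA pair when a control is. The median log2 fold change of the members was -0.23 with a pseudocount of 0.1, -0.093 without a filter over 38 members, and -0.32 to -0.19 with 1 library left out. IFI6, OAS3 and SAMD9 were lower at an unadjusted P below 0.05 under every alternative except the loss of either control, and SP100 was also above 0.05 with median-of-ratios scaling.

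Near 0, ISG15 turned to 0.0080 with median-of-ratios scaling and HLA-B to -0.0044 with limma-voom. With 1 library left out, log2 fold changes changed sign for 13 members and ranged from -0.57 to 0.19 for IFIT5, -0.48 to 0.46 for ISG15, -0.39 to 0.26 for HERC5, -0.26 to 0.68 for OASL, -0.21 to 0.33 for HLA-C, -0.27 to 0.059 for B2M, -0.26 to 0.27 for HLA-B, -0.060 to 0.19 for TAP1, -0.41 to 0.36 for TRIM21, -0.18 to 0.10 for PARP14, -0.39 to 0.12 for PARP9, -0.051 to 0.64 for BST2 and -0.86 to 0.80 for IRF7. With 2 libraries per group, and with 2 to 16 reads behind the lowest values of OAS1, OAS2 and IFIT2, small differences of these members were not detectable at this depth.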
